A study of Mus musculus with 12 samples.

Results

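Solute carrier (Slc) genes encode the membrane proteins that move sugars, amino acids, lactate, ions, metals, nucleotides and vitamins across the cell surface and the membranes of organelles. The members described here are the genes whose first listed name starts with Slc and a digit and which do not lie on the X chromosome, without Slc1a2 and Slc17a7. There were 239 of them among 14899 genes in the table, of which 14415 are autosomal. They were sorted by gene family and known cargo into substrate groups, and 4 of them (Slc9a3r1, Slc9a3r2, Slc4a1ap and Slc7a6os) carry an Slc name but are adaptor or unrelated proteins and form a group of their own.

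The cells were hybrids of the mouse strains 129Sv and Cast/EiJ, in which a read over a strain variant shows the allele it came from, and the series concerns genes that a clone of cells expresses from 1 allele only. 4 neural progenitor cell (NPC) clones, named 129, C2, G4 and E1.2, had been grown from the female embryonic stem (ES) line F1-21.6 (XX), and 4 NPC clones, mC3, mE6, mB4 and mG3, from the male ES line F1-23 (XY). Each NPC clone and each parent ES line gave 1 library of polyadenylated RNA, so the NPC group has n = 8 and the ES group n = 2. The ES lines grew in serum with LIF on inactivated mouse embryonic fibroblasts, whose RNA can be in the ES libraries, and the progenitors were derived from them by differentiation. No gene had been edited and no group had been treated. XX and XY clones differ in line, sex chromosomes and the name prefix of their libraries all at once, and these cannot be told apart. Clone 129 is the name of a cell clone and is not the 129 allele.

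The number after Slc names a family of related sequence, and separate families need not share an ancestor. Facilitative carriers such as those of Slc2 let glucose run down its gradient. Sodium-coupled carriers such as those of Slc1 and Slc6 drive amino acids and transmitters inward on the gradient that the sodium pump makes. Most Slc25 carriers serve the inner membrane of mitochondria. ES cells are known for fast glycolysis, with glucose taken up and lactate released. Neural progenitors and the glia that come from them are known for clearing glutamate and GABA and for handling bicarbonate, potassium and peptides.

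Total allele-informative counts per library ran from 61375911 to 119266777. The cell types carried their markers as far as these were listed. Of 18 pluripotency markers only 6 were among the genes listed, and all 6 were lower in NPC clones. Of 18 neural progenitor markers, which include the member Slc1a3, 14 were higher in NPC clones (1 lower, 3 not called). The summed level of 11 feeder fibroblast markers was 4.38 to 46.8 FPKM in NPC clones, highest in E1.2, and 40.4 to 65.6 FPKM in ES lines, with 5 lower in NPC clones and none higher. What part feeder RNA has in the ES levels below was not tested. Levels are in FPKM, which is scaled to transcript length, whereas fold changes come from the allele-informative counts. In bulk RNA, fewer cells of a type and less RNA per cell cannot be told apart. Each gene listed reached 11 counts or more in some NPC clone. In both ES lines, 26 of 239 members and 1635 of all 14899 genes had fewer than 11 counts. Carriers expressed in ES cells alone are therefore missing, and the numbers of higher and lower members cannot be weighed against each other.

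The first comparison, of NPC clones with ES lines, asked how transport changes with the cell type. Of 234 members tested, 93 (39.7%) were higher and 58 (24.8%) were lower in NPC clones, and 83 were not called at an adjusted p of 0.05 (edgeR's quasi-likelihood test with Benjamini-Hochberg adjustment over all genes). Over all 14561 genes tested, 33.3% were higher and 29.7% lower. The median log2 change was 0.24 over members and 0.11 over all genes. Members were thus called at a rate close to that of all genes. 9 of the members tested had 0 counts in both ES lines, where a fold is given only as a lower bound, and they lie above the median at that bound as well. p-values measure the spread between clones and between 2 ES libraries. In the libraries of 1 name prefix alone (the XY clones and both ES lines), ES line XX is the only XX library. The term for line absorbs it there, so this fit is in effect that of the XY line with 1 ES library. The median log2 change over members was 0.32 in it. With the XX line alone, which has 1 ES library, the median log2 change over members was 0.42. In that line the NPC clones and the ES line also differ in name prefix, which cannot be told apart from cell type.

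**Figure D1:**
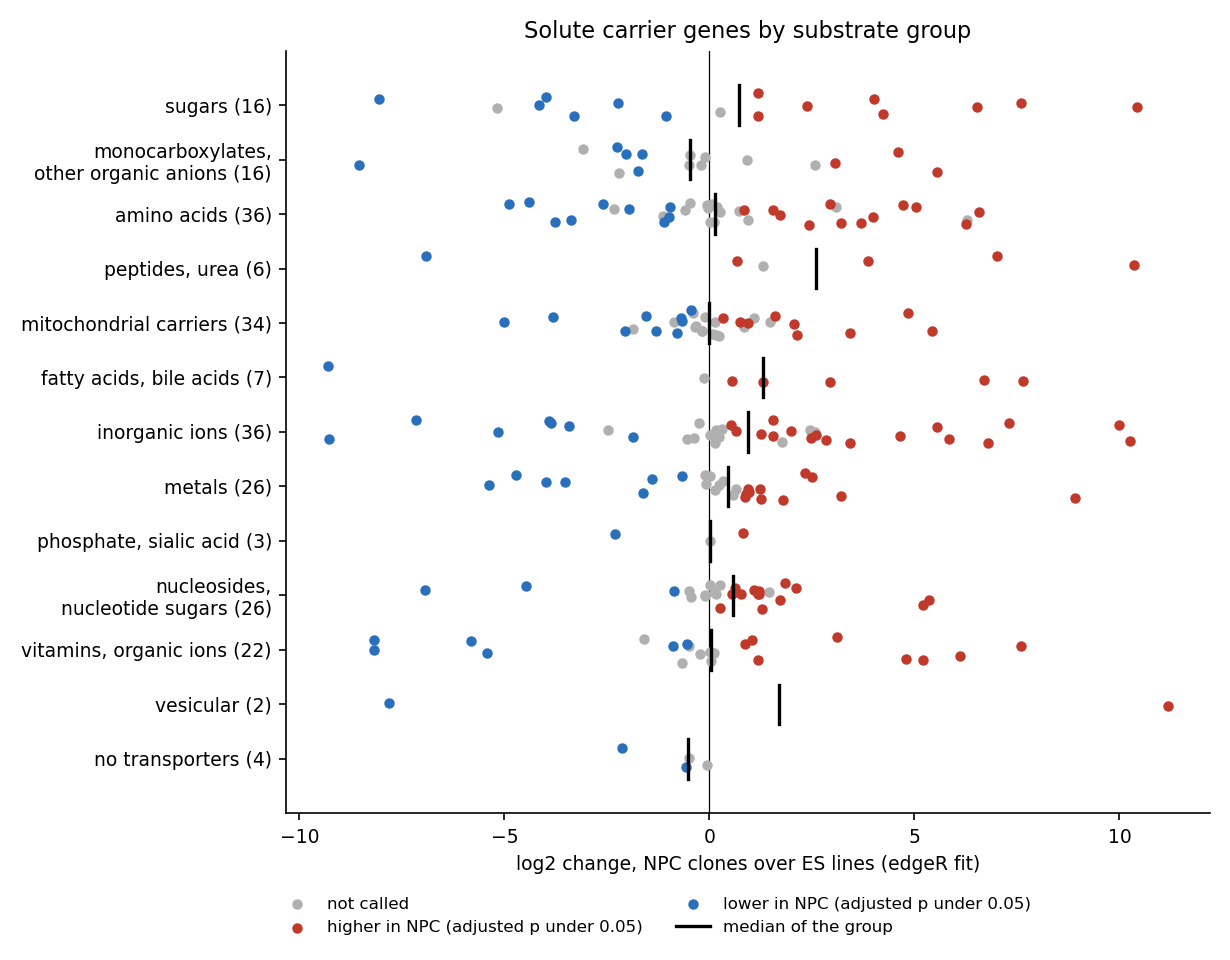
log2 change between NPC clones and ES lines (x axis; allele-informative counts, edgeR fit) for each tested member, 1 point per gene, by substrate group (y axis), with colour for higher, lower and not called. Every group with 3 or more tested members but the adaptors holds points on both sides of 0, and the lowest points of the sugar and monocarboxylate groups are Slc2a3 at -8.05 and Slc16a3 at -8.54. Black bars are medians, and fitted values of genes without ES counts depend on the fit's prior count.

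The sugar carriers had the largest difference in summed FPKM of the substrate groups. The 16 of them summed to 113 to 209 (median 167) in NPC clones, against 856 in ES line XX and 875 in ES line XY (FPKM), and most of the ES level came from a pair of genes. Slc2a3 encodes GLUT3, a high-affinity glucose transporter known from neurons and the early embryo. It had 1.82, 1.98, 2.62 and 1.63 FPKM in clones 129, C2, G4 and E1.2 (XX), 2.7, 1.11, 1.01 and 1.61 FPKM in mC3, mE6, mB4 and mG3 (XY), and 461 and 468 FPKM in ES lines XX and XY. Every clone lay far below both ES lines, and the log2 change was -8.05 ± 0.39 (SE; adjusted p = 1.02e-06 by edgeR). Slc2a1, the widely expressed glucose transporter GLUT1, had 12.3, 15.8, 9.72 and 23.7 FPKM in clones 129, C2, G4 and E1.2 (XX), 43.9, 19.5, 16.3 and 23.9 FPKM in mC3, mE6, mB4 and mG3 (XY), and 325 and 343 FPKM in ES lines XX and XY. Clone mC3 kept the most, but no clone came near an ES line, with a log2 change of -4.16 ± 0.35 (SE; adjusted p = 1.41e-05 by edgeR). Slc2a4, the insulin-responsive GLUT4, was lower as well (-2.22), but not with either ES line left out (adjusted p up to 0.0799).

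Other sugar and polyol carriers were higher in NPC clones. Of the 16 in the group 8 were higher, 6 lower and 2 not called. Slc2a9, known as a urate transporter, had 5.98 to 13.6 FPKM in NPC clones (median 9.23) and 0.072 and 0.0656 FPKM in ES lines XX and XY, with no overlap and a log2 change of 7.6 ± 0.58 (SE; adjusted p = 8.54e-06 by edgeR). Slc5a9, a sodium-coupled carrier known for mannose, had 0.217 to 0.844 FPKM in NPC clones (median 0.364) and 0 and 0 FPKM in ES lines XX and XY. It had 0 counts in both ES lines and was at least 95.9-fold higher in NPC clones against a floor of 3 counts over the ES lines together. The myo-inositol carriers rose together: Slc5a3, which couples it to sodium, to 113 ± 24.7 FPKM in NPC clones and 30.8 ± 0.981 FPKM in ES lines (SD, n = 8 and n = 2; log2 change 2.38), and Slc2a13, which couples it to protons, by 6.52. Slc5a3 is listed in 1 row with Mrps6, so its values cover both genes. Slc5a12, placed here by its family, is known as a lactate carrier and rose by 4.23 at less than 0.2 FPKM, a call that was lost without ES line XX (adjusted p = 0.0715). Slc5a2 and Slc5a10 had opposite directions by counts and by FPKM, at means under 1 FPKM. By counts Slc5a2 is among the 8 higher and Slc5a10 among the 6 lower, but neither direction is relied on.

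The main lactate carriers were lower too. The Slc16 family of 13 members summed to 24 to 35.9 (median 28.1) in NPC clones, against 144 in ES line XX and 168 in ES line XY (FPKM). Slc16a3, the monocarboxylate carrier MCT4 that exports lactate from glycolytic cells, had 0.11, 0.119, 0.0909 and 0.128 FPKM in clones 129, C2, G4 and E1.2 (XX), 0.262, 1.13, 0.27 and 0.21 FPKM in mC3, mE6, mB4 and mG3 (XY), and 83.6 and 108 FPKM in ES lines XX and XY. It was nearly silent in 7 clones and stood at 1.1 FPKM in mE6, and its log2 change was -8.54 ± 0.48 (SE; adjusted p = 1.70e-06 by edgeR). Of its exon bases 15.6% overlap Csnk1d on the other strand. Slc16a1, the widely expressed MCT1, had 12.9 to 20.4 FPKM in NPC clones (median 14.9) and 49.7 and 47.3 FPKM in ES lines XX and XY, without overlap, and a log2 change of -1.65 ± 0.14 (SE; adjusted p = 1.68e-05 by edgeR). Slc16a10, which carries aromatic amino acids, was at -2.03. Against these, Slc13a3, a sodium-coupled carrier of succinate and other dicarboxylates, was higher, with 1.5 to 5.18 FPKM in NPC clones (median 2.68) and 0.056 and 0.053 FPKM in ES lines XX and XY and a log2 change of 5.56 ± 0.97 (SE; adjusted p = 0.00090 by edgeR). Slc16a12, known to carry creatine, was at 4.59 but its call was lost without the XY ES line (adjusted p = 0.0609). In the whole group of 16, 3 were higher, 5 lower and 8 not called.

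The starts of Slc16a3 and Slc2a1 are shown because these genes fell together and both carry the core letters of the hypoxia response element, ACGTG, here in capitals. Sequences are 5′ to 3′ on the gene's strand, from RefSeq promoters matched to mm9. The first runs from 33 to 4 bases before the RefSeq start at chr11:120810348-120810377 (plus strand), within the deposited span of the gene, and the second from 49 to 20 bases before it at chr4:118781301-118781330 (plus strand).
Slc16a3: gcggtgACGTGcgcgggggACGTGccgcgc
Slc2a1: agtcccgccccggACGTGctccccaggccc
In the 250 bases before the start, on either strand, ACGTG stood in 16.6% of 32851 RefSeq promoters and in 21.8% of 229 promoters of members. Of the 239 members 183 had at least 1 RefSeq promoter. A match of letters is a description and shows no binding.

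**Figure D2:**
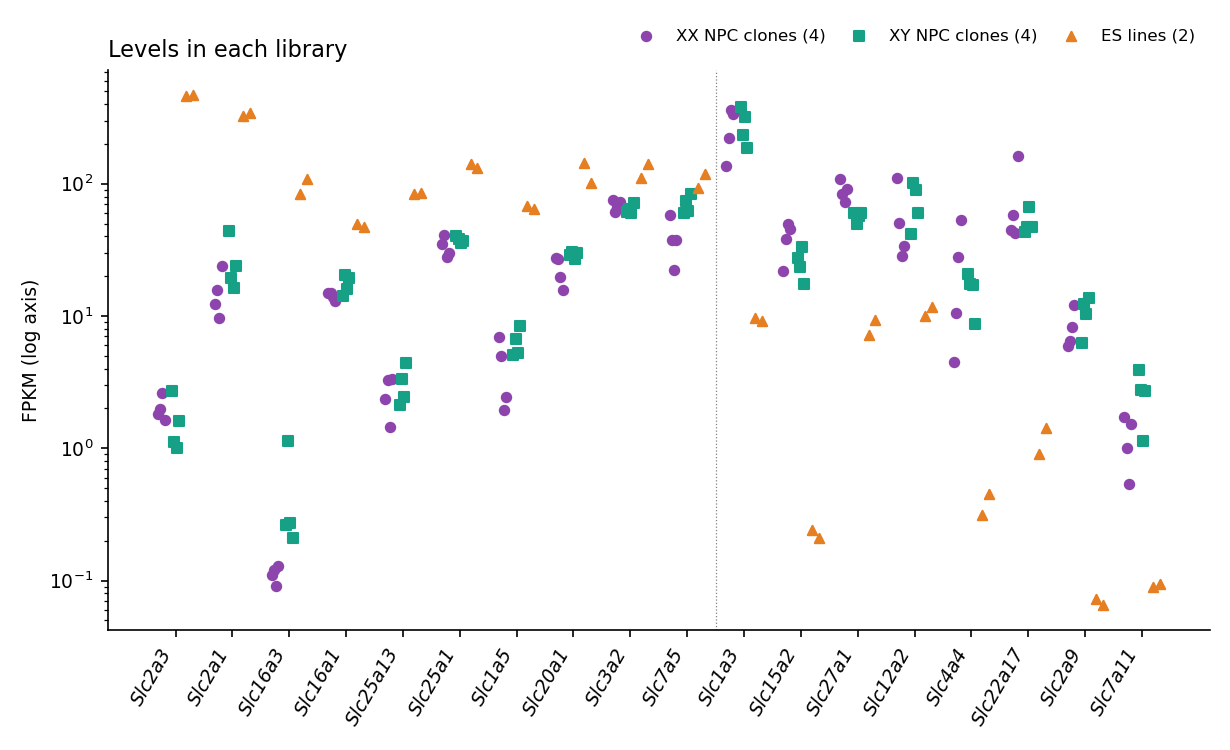
Level of 18 carriers in each library (y axis, FPKM on a log axis), with XX NPC clones, XY NPC clones and ES lines side by side for each gene; genes left of the dotted line were lower and those right of it higher in NPC clones. No NPC clone reaches an ES line for Slc2a3, Slc2a1 or Slc16a3, and every NPC clone is above both ES lines for Slc1a3, Slc15a2 and Slc27a1.

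The 36 members of the Slc25 family were grouped as mitochondrial carriers, although the group takes in Slc25a17, a peroxisomal carrier. Of 34 tested 9 were higher, 9 lower and 16 not called. The summed level of all 36 was 622 to 806 (median 703) in NPC clones, against 865 in ES line XX and 829 in ES line XY (FPKM). Slc25a13, citrin, exchanges aspartate for glutamate in the malate-aspartate shuttle. It had 2.34, 3.28, 1.46 and 3.34 FPKM in clones 129, C2, G4 and E1.2 (XX), 2.14, 3.31, 2.45 and 4.43 FPKM in mC3, mE6, mB4 and mG3 (XY), and 83.7 and 84.9 FPKM in ES lines XX and XY. All clones were far below the ES lines, at a log2 change of -5.0 ± 0.32 (SE; adjusted p = 2.99e-06 by edgeR). Its close relative Slc25a12, aralar, was at 22.4 ± 4.71 FPKM in NPC clones and 29 ± 1.03 FPKM in ES lines (SD, n = 8 and n = 2; log2 change -0.69), a call that was lost without either ES line (adjusted p up to 0.149). Slc25a1 exports citrate, a source of acetyl-CoA for lipid synthesis in the cytosol. It had 27.8 to 40.9 FPKM in NPC clones (median 36.4) and 142 and 132 FPKM in ES lines XX and XY, without overlap, and a log2 change of -2.05 ± 0.12 (SE; adjusted p = 2.30e-06 by edgeR). Slc25a36 and Slc25a33, which carry pyrimidine nucleotides, were at -1.54 and -1.3.

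Higher in NPC clones were Slc25a29, which carries basic amino acids (4.33 to 10.1 FPKM in NPC clones (median 8.57) and 1.15 and 0.722 FPKM in ES lines XX and XY; log2 change 3.43 ± 0.51 (SE; adjusted p = 0.000347 by edgeR)), and Slc25a23, which exchanges ATP-magnesium for phosphate (2.13). The glutamate carriers Slc25a22 and Slc25a18 were at 1.6 and 2.05. Slc25a22 is listed in 1 row with Lrdd, so its levels and allele shares cover both genes. For Slc25a18 the FPKM differed far more than the counts, with 28.4 to 83.8 FPKM in NPC clones (median 48.3) and 0.0732 and 0.176 FPKM in ES lines XX and XY. Slc25a21, which carries oxodicarboxylates, was higher by counts (4.85) but lay at 0.134 FPKM or less in every library and was not called from FPKM. The phosphate carrier Slc25a3, the family's most abundant member, was at 252 ± 32.8 FPKM in NPC clones and 289 ± 12.3 FPKM in ES lines (SD, n = 8 and n = 2) and was not called (edgeR adjusted p = 0.075).

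The promoters of Slc25a13 and Slc25a1 are shown as those of the 2 mitochondrial carriers named for their fall, each with 1 E-box, CACGTG, in capitals. They hold the 250 bases before the RefSeq start on the minus strand of mm9, at chr6:6167174-6167423 and chr16:17928313-17928562.
Slc25a13: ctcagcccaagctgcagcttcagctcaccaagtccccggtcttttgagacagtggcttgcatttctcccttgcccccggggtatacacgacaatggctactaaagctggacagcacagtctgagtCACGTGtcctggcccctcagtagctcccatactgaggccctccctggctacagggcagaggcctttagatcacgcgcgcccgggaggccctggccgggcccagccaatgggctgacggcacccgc
Slc25a1: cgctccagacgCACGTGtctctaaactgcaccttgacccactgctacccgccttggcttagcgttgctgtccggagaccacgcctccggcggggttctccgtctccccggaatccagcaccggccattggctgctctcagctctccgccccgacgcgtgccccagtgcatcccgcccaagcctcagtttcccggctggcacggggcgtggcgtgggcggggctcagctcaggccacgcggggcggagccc
The E-box begins 125 bases before the start of Slc25a13 and 239 bases before that of Slc25a1. CACGTG, which also contains ACGTG, stood in 6.02% of all promoters and in 11.4% of those of members.

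Amino acid carriers as a group kept their summed level, with 490 to 763 (median 639.8) in NPC clones, against 535 in ES line XX and 639 in ES line XY (FPKM), but its makeup differed. Of 36 tested, 12 were higher, 9 lower and 15 not called. Carriers of glutamate and glutamine moved in both directions, and of the 5 members of the Slc1 family 1 was higher, 2 were lower and 2 were not called. Slc1a3, the glial glutamate transporter GLAST and one of the neural progenitor markers, had 137, 220.2, 362 and 339 FPKM in clones 129, C2, G4 and E1.2 (XX), 381, 234, 321 and 185 FPKM in mC3, mE6, mB4 and mG3 (XY), and 9.6 and 9.1 FPKM in ES lines XX and XY. All clones exceeded both ES lines, at a log2 change of 4.72 ± 0.51 (SE; adjusted p = 5.77e-05 by edgeR). Slc1a1, the neuronal glutamate carrier EAAC1, was lower, with 0.0171 to 0.718 FPKM in NPC clones (median 0.361) and 2.06 and 1.02 FPKM in ES lines XX and XY (-2.58), a call that was lost without either ES line and without E1.2 (adjusted p up to 0.289). Slc38a3, which carries glutamine, and Slc7a2, a carrier of arginine and lysine, were at 3.69 and 5.03, the call for Slc38a3 being lost without ES line XX (adjusted p = 0.103). Slc7a11, the cystine-glutamate exchanger xCT, had 1.73, 1.0, 0.541 and 1.53 FPKM in clones 129, C2, G4 and E1.2 (XX), 3.91, 2.77, 1.12 and 2.72 FPKM in mC3, mE6, mB4 and mG3 (XY), and 0.0897 and 0.0935 FPKM in ES lines XX and XY. It was low in all libraries but higher in every clone than in either ES line (6.27 ± 0.82 (SE; adjusted p = 0.000171 by edgeR)).

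The RefSeq promoter of Slc7a11 holds the core letters of the amino acid response element, TTGCATCA, once on each strand (TGATGCAA on the strand shown), in capitals below. The stretch runs from 68 to 39 bases before the start on the minus strand of mm9, chr3:50247574-50247603, within the deposited span of the gene.
Slc7a11: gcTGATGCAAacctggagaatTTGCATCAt
These 8 letters stood in 0.791% of all promoters and in 2 of the 229 promoters of members (0.873%).

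Carriers of neutral amino acids and taurine were among the lower ones. Slc1a5, the glutamine carrier ASCT2, had 6.99, 4.98, 1.95 and 2.45 FPKM in clones 129, C2, G4 and E1.2 (XX), 5.06, 6.64, 5.25 and 8.45 FPKM in mC3, mE6, mB4 and mG3 (XY), and 67.3 and 64.7 FPKM in ES lines XX and XY. No clone was near the ES lines, and the log2 change was -3.77 ± 0.39 (SE; adjusted p = 4.07e-05 by edgeR). Slc3a2, the heavy chain that brings several Slc7 carriers to the surface, had 59.9 to 75.4 FPKM in NPC clones (median 65.8) and 111 and 141 FPKM in ES lines XX and XY (-0.99 ± 0.14 (SE; adjusted p = 0.000242 by edgeR)). Its light chain partner Slc7a5, the large neutral amino acid carrier LAT1, had 22.2 to 83.9 FPKM in NPC clones (median 58.9) and 92.1 and 119 FPKM in ES lines XX and XY (-1.1 ± 0.29 (SE; adjusted p = 0.00875 by edgeR)). The clones lay below both ES lines for both chains, but the call for Slc7a5 was lost without ES line XX (adjusted p = 0.137). Slc6a6, the taurine carrier, was at -3.37, and Slc38a2, a glutamine and alanine carrier, at -0.96. Slc6a15, a neutral amino acid carrier of neurons, was at -4.4, a call that was lost without the XY ES line (adjusted p = 0.262). Slc1a4, the serine carrier ASCT1, was at 0.18 ± 0.21 (SE; adjusted p = 0.458 by edgeR) and Slc38a1, another glutamine carrier, at -1.13 ± 0.66 (SE; adjusted p = 0.162 by edgeR), neither of which was called.

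Among members with a mean of at least 1 CPM (counts scaled to library size), Slc6a11 varied most among clones. It encodes the GABA carrier GAT3 and lies on chromosome 6, at chr6:114081195-114199938. It had 0.0283, 0.138, 2.95 and 0.119 FPKM in clones 129, C2, G4 and E1.2 (XX), 10, 10.5, 10.9 and 8.04 FPKM in mC3, mE6, mB4 and mG3 (XY), and 0.0436 and 0.186 FPKM in ES lines XX and XY. The XY clones were high, G4 intermediate, and clone 129, C2 and E1.2 lay within or below the range of the ES lines. The log2 change was 6.58 ± 2.2 (SE; adjusted p = 0.0263 by edgeR), and the call was lost without either ES line (adjusted p up to 0.133). It was not called between XX and XY clones (edgeR adjusted p = 0.178).

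Fatty acid carriers of the Slc27 family changed in both directions. Of the 7 tested carriers of lipids and bile acids 5 were higher, 1 lower and 1 not called, and the summed level was 94.8 to 144 (median 112) in NPC clones, against 37.7 in ES line XX and 46.5 in ES line XY (FPKM). Slc27a1, the fatty acid transporter FATP1, had 108, 83.4, 72.4 and 91.4 FPKM in clones 129, C2, G4 and E1.2 (XX), 60, 49.5, 57.3 and 60.3 FPKM in mC3, mE6, mB4 and mG3 (XY), and 7.24 and 9.25 FPKM in ES lines XX and XY. Every clone was above both ES lines (2.93 ± 0.28 (SE; adjusted p = 3.05e-05 by edgeR)). Slc27a3 and Slc27a4 of the same family were at 1.31 and 0.56, the call for Slc27a3 being lost without the XY ES line (adjusted p = 0.162). Slc27a6 was at 7.65, a call that was lost without either ES line (adjusted p up to 0.134). Slc27a2, which activates very long-chain fatty acids, went the other way, with 0 to 0.021 FPKM in NPC clones (median 0.00709) and 4.47 and 12.9 FPKM in ES lines XX and XY and a log2 change of -9.29 ± 1.01 (SE; adjusted p = 5.95e-05 by edgeR). 11.2% of its exon bases overlap Gm16762.

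Of 36 ion carriers 17 were higher, 7 lower and 12 not called, and the group summed to 215 to 271 (median 247) in NPC clones, against 145 in ES line XX and 153 in ES line XY (FPKM). Of the sodium-calcium exchangers, 2 of 3 in Slc8 were higher and 1 was not called, and of 5 in Slc24 2 were higher, 1 was lower and 2 were not called. Slc8a3 (NCX3) had 0.825 to 2.63 FPKM in NPC clones (median 1.52) and 0 and 0 FPKM in ES lines XX and XY. It had 0 ES counts and was at least 69.9-fold higher, while Slc8a1 and Slc24a3 were at 4.64 and 6.78. The call for Slc24a4, with 0 ES counts and less than 0.4 FPKM in every clone, was lost without either ES line (adjusted p up to 0.138). Slc24a6, the lower one, had 1.72 to 4.11 FPKM in NPC clones (median 2.54) and 10.6 and 8.07 FPKM in ES lines XX and XY (-1.87 ± 0.2 (SE; adjusted p = 5.66e-05 by edgeR)). Slc4a4, a sodium-bicarbonate cotransporter known from astrocytes, had 4.5, 10.5, 27.8 and 53.5 FPKM in clones 129, C2, G4 and E1.2 (XX), 20.8, 17.5, 17.1 and 8.65 FPKM in mC3, mE6, mB4 and mG3 (XY), and 0.312 and 0.453 FPKM in ES lines XX and XY. Its clones spread over a wide range above the ES lines (5.55 ± 1.1 (SE; adjusted p = 0.00191 by edgeR)), and it was highest in E1.2. Of 7 astrocyte markers tested 2 were higher, 1 lower and 4 not called, none was at 0 in every NPC clone, and their summed level was 182 to 511 FPKM in NPC clones, highest in E1.2, and 178 and 187 FPKM in ES lines XX and XY. Aqp4 was at 29.5 FPKM in E1.2 and at most 3.72 FPKM in the other clones, and Gfap at 5.32 FPKM in E1.2 and at most 0.436 FPKM in the others. Their part in the level of Slc4a4 was not tested. Slc26a7, an anion exchanger with 0 ES counts, was at least 82.9-fold higher but stayed under 0.4 FPKM. Slc4a2 (AE2) was at 2.6.

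Chloride cotransporters moved in both directions. Slc12a2, the sodium-potassium-chloride carrier NKCC1 that loads cells with chloride, had 28.2 to 110.3 FPKM in NPC clones (median 55.1) and 9.99 and 11.7 FPKM in ES lines XX and XY (2.48 ± 0.61 (SE; adjusted p = 0.00605 by edgeR)), a call that was lost without the XY ES line (adjusted p = 0.0543). Of the potassium-chloride carriers that let it out, Slc12a4 was higher (1.56) and Slc12a7 lower (-3.86; 1.22 to 4.14 FPKM in NPC clones (median 2.14) and 32.7 and 27.8 FPKM in ES lines XX and XY). Slc12a8 and the bicarbonate carrier Slc4a5 were lower, at -5.16 and -9.27. Slc4a5 had 0 to 0.0192 FPKM in NPC clones (median 0.00498) and 4.83 and 4.11 FPKM in ES lines XX and XY.

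Metal carriers summed to 280.4 to 347 (median 332) in NPC clones, against 229.7 in ES line XX and 223 in ES line XY (FPKM), with 11 of 26 higher, 7 lower and 8 not called. Slc39a12, the zinc importer ZIP12, had 1.43, 2.65, 16.5 and 24.2 FPKM in clones 129, C2, G4 and E1.2 (XX), 1.17, 1.95, 2.52 and 2.19 FPKM in mC3, mE6, mB4 and mG3 (XY), and 0.00763 and 0 FPKM in ES lines XX and XY. G4 and E1.2 stood well above the other clones, and every clone above the ES lines (8.91 ± 1.65 (SE; adjusted p = 0.0013 by edgeR)). The zinc carriers Slc30a4 and Slc39a6 and the magnesium carrier Slc41a2 were at 2.51, 1.8 and 3.21. Slc39a14, which takes up zinc and iron, had 5.14 to 7.26 FPKM in NPC clones (median 6.0) and 12.6 and 18.6 FPKM in ES lines XX and XY (-1.39 ± 0.12 (SE; adjusted p = 1.91e-05 by edgeR)). The copper carrier Slc31a2 was at -1.61, and ferroportin, Slc40a1, the cell's iron exporter, at -3.52. The ES lines differed for Slc40a1, with 0.614 FPKM in the XX line and 5.0 FPKM in the XY line, and its call was lost without the XY ES line (adjusted p = 0.243).

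Carriers of nucleotide sugars, which feed glycosylation in the Golgi and the endoplasmic reticulum, sit in the membranes of these organelles. Of 26 carriers of nucleosides, nucleotide sugars and sugar phosphates 14 were higher, 3 lower and 9 not called, and they summed to 245 to 277 (median 262) in NPC clones, against 169 in ES line XX and 179.7 in ES line XY (FPKM). Slc35a5 was at 2.12 ± 0.19 (SE; adjusted p = 1.75e-05 by edgeR), and Slc35a1, which brings CMP-sialic acid into the Golgi, at 1.2. Slc33a1, which brings in acetyl-CoA, was at 1.09. Slc35f4 had 439 counts over the NPC clones and 2 over the ES lines, a ratio of library-scaled counts of 43.0 (95% counting interval 11.9 to 355), at a median of 0.659 FPKM in NPC clones. Other large changes were in Slc35f1, of unknown cargo (3.93 to 15.7 FPKM in NPC clones (median 10.7) and 0.149 and 0.533 FPKM in ES lines XX and XY; 5.22 ± 0.85 (SE; adjusted p = 0.000597 by edgeR)), and in Slc35f2 and Slc37a1, which were lower at -4.48 and -6.94.

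The peptide carriers of brain and intestine moved in opposite directions. Slc15a2, the high-affinity peptide carrier PEPT2 known from brain and kidney, had 21.8, 38.3, 49.8 and 45.5 FPKM in clones 129, C2, G4 and E1.2 (XX), 27.6, 23.4, 33.3 and 17.6 FPKM in mC3, mE6, mB4 and mG3 (XY), and 0.242 and 0.209 FPKM in ES lines XX and XY. It held 8179 counts over the NPC clones and 1 over the ES lines, a ratio of library-scaled counts of 1604 (95% counting interval 288 to 63356). Slc15a1, the intestinal PEPT1, had 0.0129 to 0.178 FPKM in NPC clones (median 0.0515) and 2.96 and 2.73 FPKM in ES lines XX and XY (-6.9 ± 1.22 (SE; adjusted p = 0.000971 by edgeR)), so the clones fell below both ES lines. Slc14a2, a urea carrier, was at 7.02. In the group of 6, 4 were higher, 1 lower and 1 not called. Among the higher ones is Slc15a3, with 1 ES count, whose FPKM did not follow its counts.

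Of the phosphate carriers, Slc20a1 had 15.7 to 30.6 FPKM in NPC clones (median 27.4) and 144 and 102 FPKM in ES lines XX and XY (-2.29 ± 0.21 (SE; adjusted p = 2.45e-05 by edgeR)), with every clone below both ES lines. Its relative Slc20a2 was not called (log2 change 0.03). Slc17a5, the lysosomal sialic acid exporter sialin, rose by 0.83. The vesicular carriers were both low in NPC clones. Slc17a9, which loads ATP into vesicles, had 0.0147 to 0.169 FPKM in NPC clones (median 0.0436) and 13.9 and 13 FPKM in ES lines XX and XY (-7.81 ± 0.73 (SE; adjusted p = 2.39e-05 by edgeR)). Slc17a8, a vesicular glutamate carrier, had 0 ES counts and was at least 159.7-fold higher, at 0.0736 to 2.25 FPKM in NPC clones (median 0.628) and 0 and 0.0264 FPKM in ES lines XX and XY.

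Of 22 carriers of vitamins and organic ions 8 were higher, 6 lower and 8 not called, and they summed to 160.2 to 298 (median 182) in NPC clones, against 119.5 in ES line XX and 122 in ES line XY (FPKM). Slc22a17, an organic cation family member known from brain, had 44.8, 58.4, 42.1 and 163 FPKM in clones 129, C2, G4 and E1.2 (XX), 43, 47.3, 66.9 and 47.5 FPKM in mC3, mE6, mB4 and mG3 (XY), and 0.912 and 1.43 FPKM in ES lines XX and XY. E1.2 was the highest clone, and every clone was above both ES lines (5.21 ± 0.72 (SE; adjusted p = 0.000242 by edgeR)). Slc22a15 and Slc22a23 were at 4.78 and 3.11. Lower were Slc47a1, which exports drugs and organic cations (-8.19), the iodide carrier Slc5a5 (-5.8) and the thiamine carrier Slc19a3 (-5.42). Of the 4 proteins that are not carriers Slc9a3r2 (-2.13) and Slc4a1ap (-0.56) were lower and none was higher. The call for Slc4a1ap was lost with the XY line alone, which has 1 ES library. It was also lost in the libraries of 1 name prefix, which is in effect the same fit.

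Genes that work with these carriers did not all follow them. Of 8 genes of the sodium pump 3 were lower (among them Atp1b1 at -2.47 and Fxyd6 at -2.33), none was higher and 5 were not called. Of 16 partners 3 were higher and 5 lower. Bsg and Emb, chaperones of lactate carriers such as Slc16a1, were at -0.80 and -3.80, and Ezr, which ties membrane proteins to actin, at -3.03. Gad1, which makes GABA, was at 3.14 and Nptn, another chaperone of lactate carriers, at 1.72. Of the organic anion carriers of the Slco family 1 of 6 was higher (Slco3a1 at 3.96) and 1 lower (Slco2a1 at -3.81). Of 27 ABC transporters, the ATP-driven carriers, 13 were higher and 10 lower. Values are log2 changes between NPC clones and ES lines.

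XX and XY NPC clones were compared for differences between the progenitors of both lines. None of 209 members was called by edgeR, where 1.29% of all 13591 genes were. That share takes in X-linked genes, which the members leave out, so it is not a like background for them. 47 members had an unadjusted p under 0.05, and DESeq2 called 29. The shares of all genes by these 2 measures are not given here, so these counts are not read as a trait of the carriers. The 4 members with the smallest adjusted p, 0.0509, were Slc25a17, a peroxisomal carrier of cofactors, Slc25a38, a mitochondrial glycine carrier, Slc38a6 and Slc22a21. They were picked after their values were seen. Slc25a17 had 33.8, 34.7, 34.2 and 27.5 CPM in clones 129, C2, G4 and E1.2 (XX), against 51.9, 44.3, 47.5 and 58.2 CPM in mC3, mE6, mB4 and mG3 (XY) (log2 change -0.64). Slc22a21, a carnitine carrier, had 5.45, 5.69, 6.1 and 5.36 CPM in the XX clones and 3.56, 2.62, 2.34 and 1.91 CPM in the XY clones in the same order (1.11). The groups did not overlap for any of the 4, but genes picked for the smallest p tend to separate, so this adds no support. The share of all genes without overlap is not given here. Whether the change from ES to NPC differed between the lines was tested as an interaction, with 1 ES library per line. Name prefix differs between NPC and ES libraries in the XX line only, so it cannot be told apart from this interaction. None of 238 members passed by edgeR, where 0.101% of all genes did, X-linked genes again included. 30 had an unadjusted p under 0.05 and DESeq2 called 13, again without the shares of all genes beside them.

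Over the 195 members with a mean of at least 1 CPM the median SD of log2 CPM among the 8 clones was 0.34, and 123 had an SD under 0.5. These measures are not given here for all genes, so no trait of the carriers is read from them. The SD was 3.04 for Slc6a11. It was 2.18 for Slc50a1, a sugar carrier of the SWEET family that had 0, 0, 0.30 and 0.0619 FPKM in clones 129, C2, G4 and E1.2 (XX), 4.36, 4.25, 23.4 and 0 FPKM in mC3, mE6, mB4 and mG3 (XY), and 10.2 and 7.92 FPKM in ES lines XX and XY. It had 0 counts in 3 clones and its highest clone exceeded both ES lines. Slc27a6, Slc16a7, Slc39a12, Slc6a15 and Slc6a2 also varied, with an SD from 1.94 down to 1.42.

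The alleles were then read in each clone, to ask which carriers use 1 allele in some clones and both in others. A gene needed 20 counts or more to be testable in a library. It was counted as monoallelic where 1 allele had at least 85% of them and an exact binomial test against equal shares passed an adjusted p of 0.05, and as biallelic where neither allele had more than 70%. Of 194 members testable in at least 6 of the 8 clones, 134 were biallelic in every testable clone. The share of all autosomal genes that were is not given here, so this count is not read as a trait of the carriers. 34 (17.5%) were random monoallelic, that is monoallelic in 1 clone or more while another clone was biallelic or was monoallelic for the opposite allele. Among all autosomal genes 13.7% were. No member used the same allele in every testable clone, against 1.01% of all genes. Allele shares differed among clones beyond the overdispersion of genes of like depth for 42 of the 194 members (quasi-likelihood test, adjusted p of 0.05; 19.8% of all genes), 23 of them random. Each clone has 1 library, so intervals on a share cover counting error only.

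Random members were found among 9 of 28 testable amino acid carriers, 5 of 31 mitochondrial, 5 of 25 nucleotide sugar and nucleoside, 4 of 14 sugar, 4 of 13 monocarboxylate and 4 of 28 ion carriers. There was 1 each among the lipid, metal and vitamin carriers. They made 60 monoallelic calls, 27 for the 129 allele and 33 for the Cast allele. 20 members were monoallelic in 1 clone, 5 in 2 clones, 7 in 3, 1 in 4 and 1 in 5. 4 members (Slc38a1, Slc6a11, Slc16a13 and Slc44a5) were monoallelic for the 129 allele in some clones and for the Cast allele in others. For Slc44a5 these calls rest on 22 counts in mB4 and 27 in G4, and it was random in only 2 of 16 alternative settings. Clone 129 held the most of these calls (14) and mE6 the fewest (4). Over all autosomal genes clone 129 was also the highest, at 8.37% monoallelic, whereas mE6 was at 6.95% and mB4 was the lowest, at 5.83%. Monoallelic members made up 5.93% ± 1.96 of testable members in NPC clones and 5.05% ± 0.750 in ES lines (SD, n = 8 and n = 2). Over all autosomal genes it was 6.80% ± 0.736 in NPC clones and 5.49% ± 0.524 in ES lines, so the members lay near the background.

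**Figure D3:**
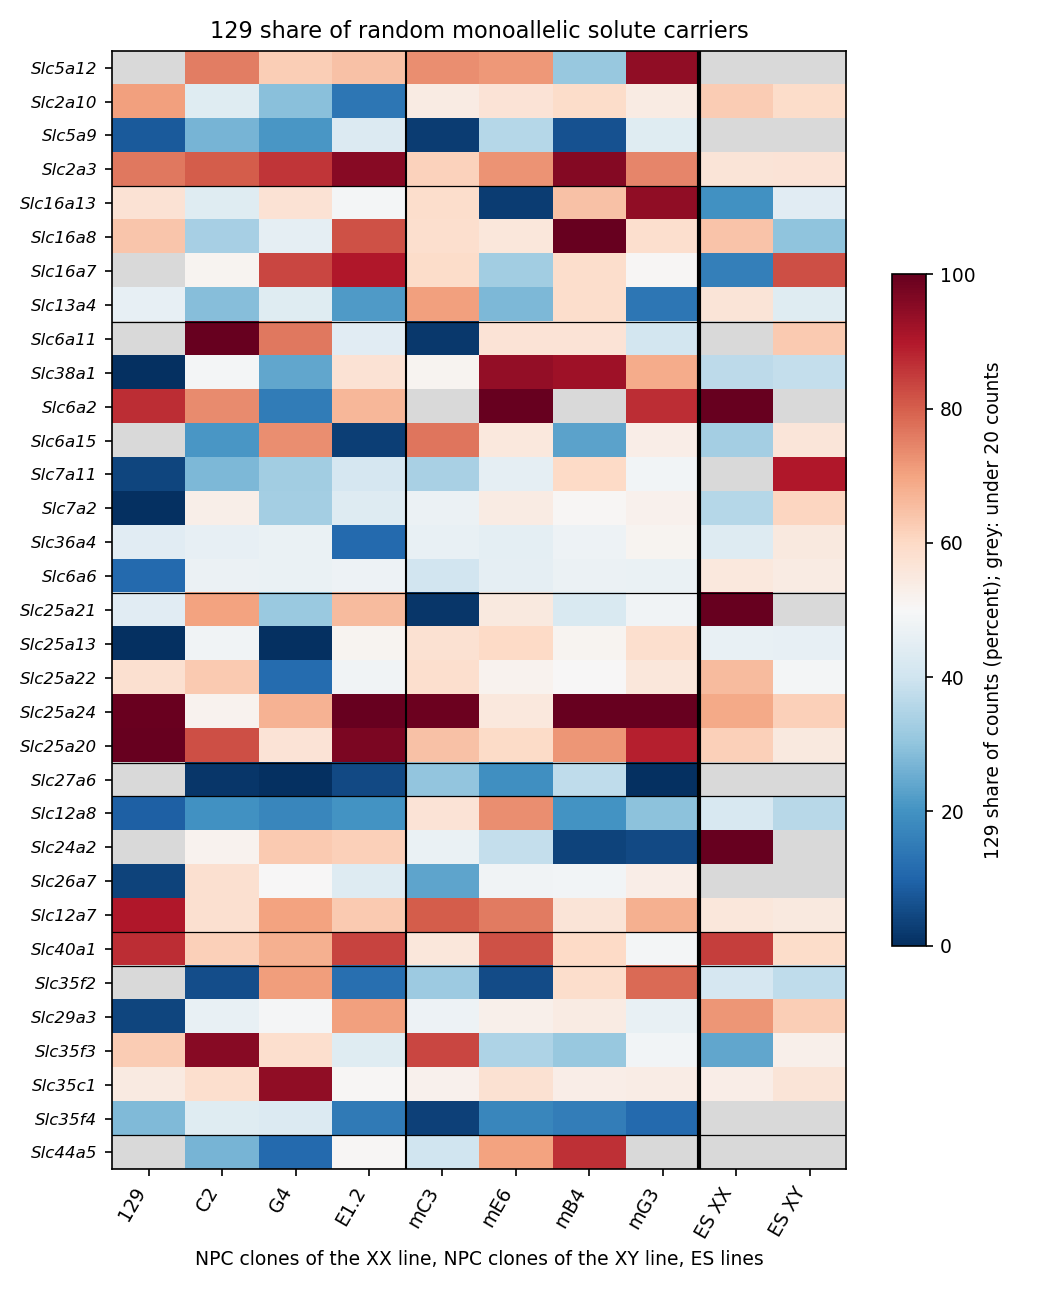
Share of counts from the 129 allele (colour, percent; blue all Cast, red all 129) of 33 random monoallelic members (down the page, by substrate group) in each library (across, XX and XY NPC clones left of the ES lines). Most cells are pale, and the dark cells fall in single clones for genes such as Slc7a2 and Slc35c1, in clone 129 and G4 for Slc25a13 and in 5 clones for Slc25a24.

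Slc38a1 was the deepest of them, with 8044 to 113129 counts per clone. Its 129 share was 0.0596%, 48.9%, 23.9% and 57.1% in clones 129, C2, G4 and E1.2 (XX) and 51.2%, 94%, 92.6% and 68.7% in mC3, mE6, mB4 and mG3 (XY), and 37% in ES line XX and 38% in ES line XY. Clone 129 thus expressed the Cast allele and mE6 and mB4 the 129 allele, with a 95% interval of 93.4 to 94.5 in mE6, and the other clones used both, from 23.9% in G4 to 68.7% in mG3 (heterogeneity adjusted p = 2.72e-224). On average it had 10.4 FPKM where it was monoallelic and 24.6 FPKM where it was biallelic, a difference that was not tested. The highest monoallelic clone, mB4, had 15.6 FPKM, close to the lowest biallelic clone, mG3, at 15.9 FPKM, and G4, which fell between both calls and is in neither mean, had 5.3 FPKM.

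**Figure D4:**
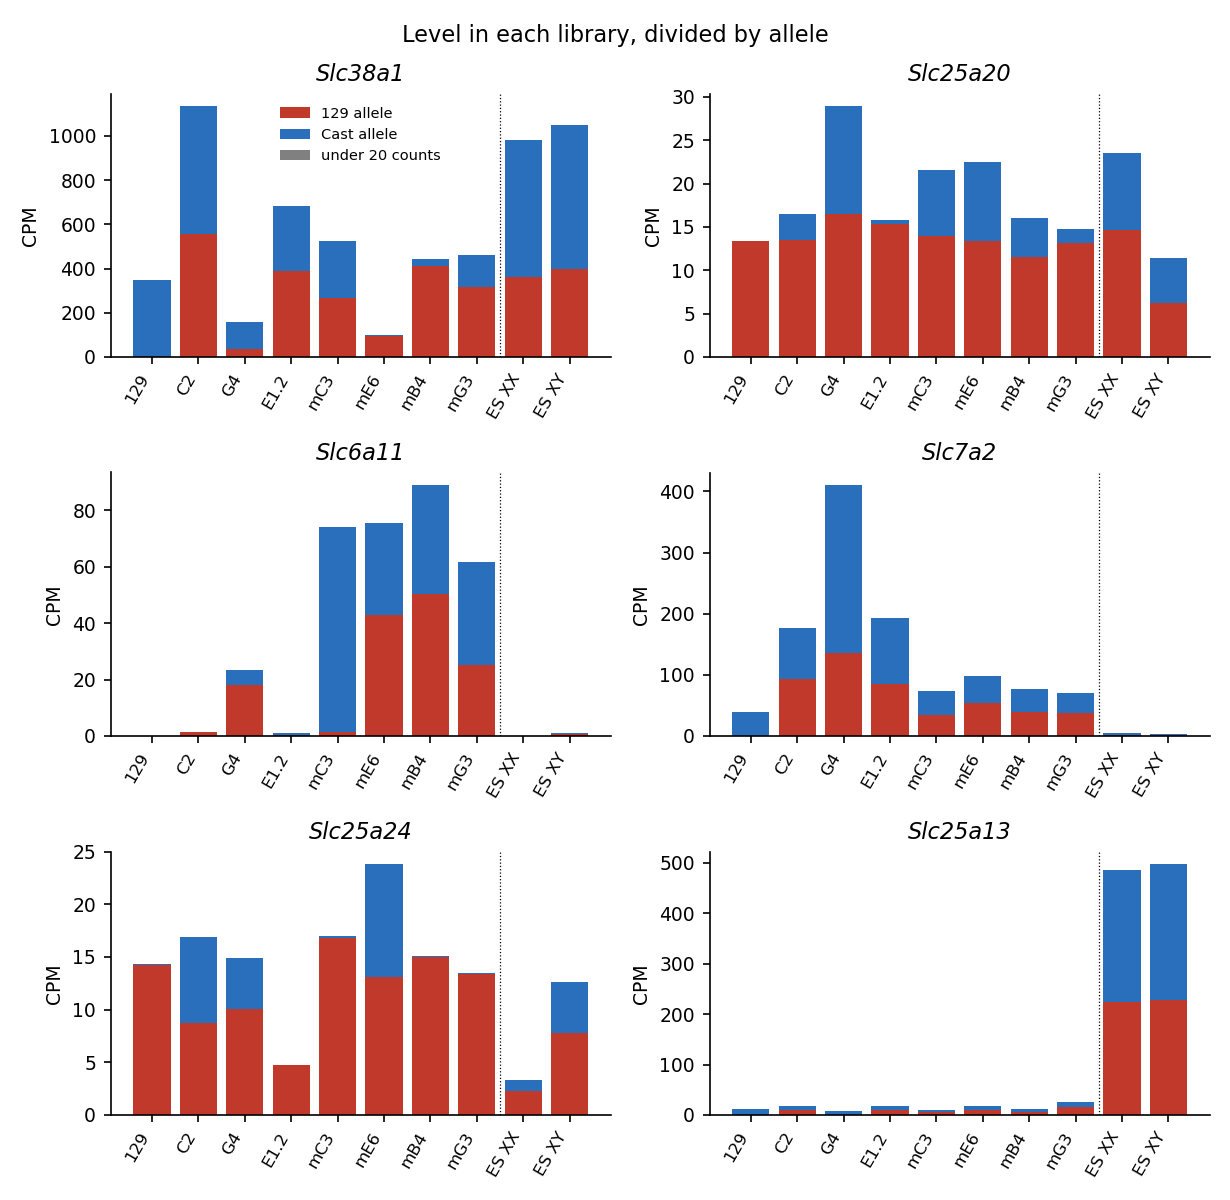
CPM (y axis) in each library (x axis, NPC clones left of the dotted line, ES lines right of it), divided into 129 allele and Cast allele, for 6 random members. Slc38a1 is all Cast in clone 129 and nearly all 129 in mE6 and mB4, and Slc6a11 is nearly all Cast in mC3 at a level like that of the other XY clones.

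The GABA carrier Slc6a11 was random too. It had too few counts in clone 129, and its 129 share was 100%, 76.3% and 44.4% in C2, G4 and E1.2 (XX) and 1.89%, 56.9%, 56.7% and 40.8% in mC3, mE6, mB4 and mG3 (XY). In C2 all 126 counts came from the 129 allele, whereas in mC3 only 126 of 6658 counts did, at a level like that of the other XY clones.

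Other amino acid and transmitter carriers were monoallelic in 1 clone or more. Slc7a2 had a share of 0.189% (95% interval 0.0614 to 0.441) in clone 129 and 33.1% to 54.3% elsewhere. Slc7a11 had 4.02% (95% interval 3.03 to 5.23) in clone 129 and 27.6% to 60% in the others, and in the XY ES line 90% of its 40 counts came from the 129 allele. Slc36a4, a carrier of proline and tryptophan, had 11.3% in E1.2 and 44.1% to 51.4% elsewhere, at 15059 counts or more. Slc6a6 came mostly from Cast in clone 129 (11.2%) against 40.3% to 47.4% in the other clones. Slc6a15, in 1 clone, and the noradrenaline carrier Slc6a2, in 3, were also random, on 21 to 928 counts per testable clone.

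Of the mitochondrial carriers, Slc25a13 had a share of 0.121%, 48.1%, 0.355% and 51.5% in clones 129, C2, G4 and E1.2 (XX) and 57.5%, 60%, 51.2% and 58.3% in mC3, mE6, mB4 and mG3 (XY), and 46.2% in ES line XX and 45.8% in ES line XY. Clone 129 and G4 used Cast almost alone, and the rest both (heterogeneity adjusted p = 5.91e-38). The random calls therefore came in a gene whose level had fallen in all clones. Slc25a24, a carrier of ATP-magnesium, used the 129 allele in 5 clones, with 99.6%, 51.7%, 67.6% and 100% in clones 129, C2, G4 and E1.2 (XX) and 99.1%, 55.1%, 99.6% and 99.7% in mC3, mE6, mB4 and mG3 (XY), and both alleles in the ES lines. Slc25a20, the acylcarnitine carrier, used it in clone 129 (100%), E1.2 (97.2%) and mG3 (89%). Slc25a22, a glutamate carrier, had 11.4% (95% interval 9.24 to 13.9) in G4 and 48.2% to 63.3% in the other clones. Slc25a21 had 1.41% in mC3 and 31.6% to 70.1% elsewhere.

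Among carriers of sugars, lactate and nucleosides, Slc2a3 kept both alleles in the ES lines, with 56.6% in ES line XX and 56.8% in ES line XY. At its low level in NPC clones its share was 76.2%, 80.4%, 85.6% and 95.3% in clones 129, C2, G4 and E1.2 (XX) and 61.7%, 72.3%, 96.1% and 74.6% in mC3, mE6, mB4 and mG3 (XY), leaning to 129 in all clones and monoallelic in 3. Slc2a10, a glucose carrier, had 13.7% (95% interval 12.6 to 14.8) in E1.2 and 29.0% to 70.6% in the others. Slc5a12 had 94.3% in mG3 and 31.0% to 75.4% elsewhere, at 87 to 199 counts. Slc29a3, a nucleoside carrier of lysosomes, had 3.92% (95% interval 2.94 to 5.1) in clone 129 and 46.4% to 70.5% in the others. Slc35c1, which brings GDP-fucose into the Golgi, had 94.4% in G4 and 50.6% to 58.2% elsewhere.

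Slc16a13, of the lactate carrier family, had 2.44% (95% interval 0.668 to 6.13) in mE6 and 94.3% (95% interval 80.8 to 99.3) in mG3, where it had 35 counts, and 44% to 64.6% in the other clones. Slc16a7, the lactate and pyruvate carrier MCT2, had 90% in E1.2 and 32.8% to 83.2% in the other testable clones. The fatty acid carrier Slc27a6 used Cast in C2, G4, E1.2 and mG3, with shares from 0.0890% to 4.96%, on 65 counts in C2. It leaned to Cast in the other testable clones as well, at 30.2% in mC3, 19.4% in mE6 and 37.3% in mB4. Slc26a7 had 3.57% in clone 129, on 28 counts. Further random members were Slc40a1, Slc12a7, Slc35f4, Slc16a8, Slc12a8, Slc44a5, Slc24a2, Slc5a9, Slc13a4, Slc35f3 and Slc35f2 at 20 to 1570 counts per testable clone.

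Slc1a3, Slc3a2 and Slc25a3 kept both alleles in every clone. Slc1a3 had a 129 share of 43.7% to 49.3% over the clones, Slc3a2 of 45.4% to 49.8% and Slc25a3 of 45.4% to 49.2%. Slc1a5 leaned to Cast in every library, with 6.72% to 20.9% in NPC clones and 21.9% and 19.0% in ES lines XX and XY. Of the 42 members that differed among clones 19 were not random by the rule given above. Of the 34 random members 23 were testable in both ES lines and 18 of these were biallelic in both. 4 were monoallelic in an ES line: Slc25a21, Slc24a2 and Slc6a2 in the XX line on 20 to 23 counts, and Slc7a11 in the XY line. The matching counts over all random genes are not given here.

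**Figure D5:**
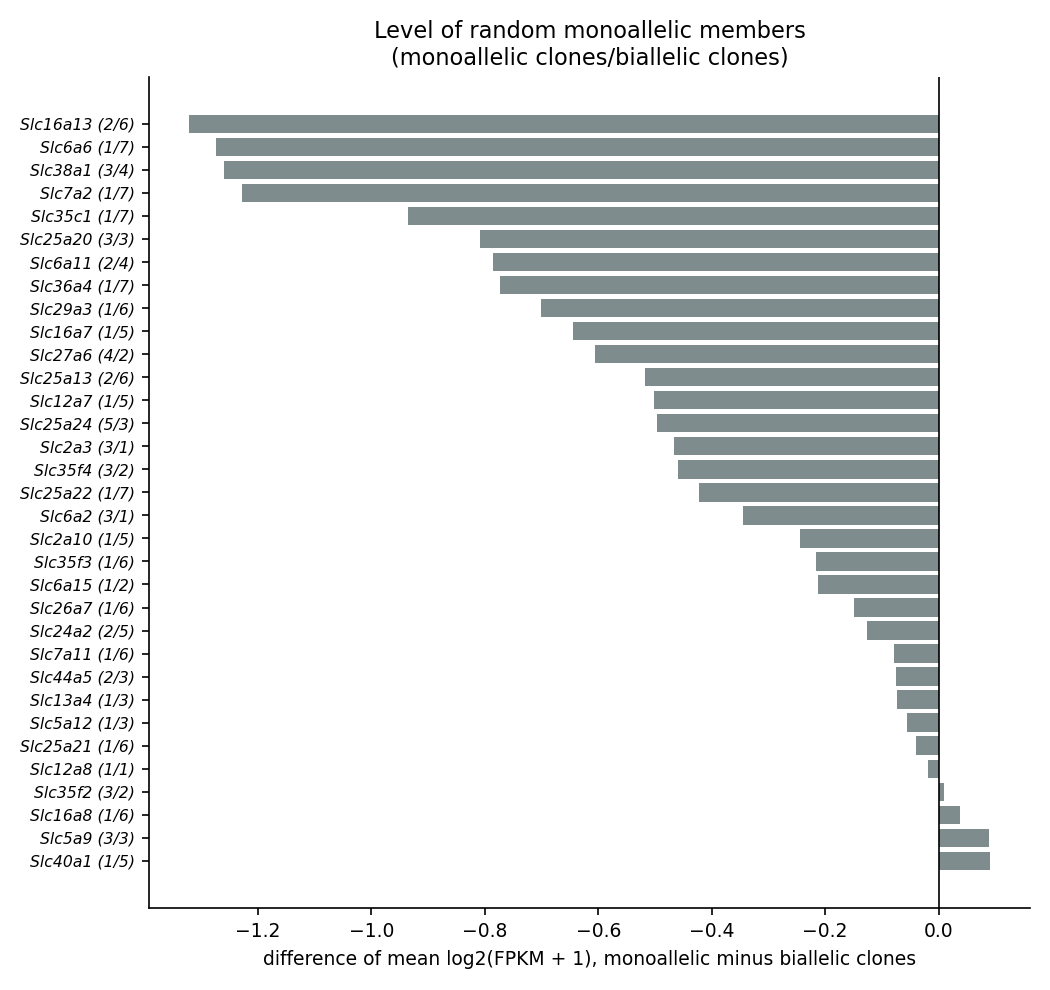
Difference in mean log2(FPKM + 1) between clones where a random member was monoallelic and clones where it was biallelic (x axis), 1 bar per gene, with the numbers of monoallelic and biallelic clones beside its name. 29 of the 33 bars lie below 0, among them that of Slc16a13 at -1.32.

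Levels in monoallelic clones were set beside those in biallelic clones of the same gene. The median difference in log2(FPKM + 1) was -0.44 over the 34 random members, with 30 lower, and -0.25 over 1639 random genes of the whole table, 75.8% of them lower. Slc16a13 was at -1.32, Slc6a6 at -1.27, Slc38a1 at -1.26 and Slc7a2 at -1.23. Slc40a1, Slc5a9, Slc16a8 and Slc35f2 were not lower, by at most 0.09. Many of these values rest on 1 monoallelic clone, and no test was made of them.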

How the data were processed

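The reads were paired and 100 bp long. The submitters' processing notes name build mm9, SAMtools, Cufflinks 1.3.0 and TopHat 1.4.0, and which of them made which column, and whether counting used strand, is not given in the sources used here. The authors deposited 1 table with allele-informative counts, the 129 share of those counts (a ratio) and FPKM for 10 libraries. A repeat library each of mC3 and C2 was not analysed here.

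The counts of both alleles together were tested with edgeR 4.0.16 in R 4.3.3 (TMM, filterByExpr, quasi-likelihood F test, Benjamini-Hochberg adjustment over all genes), with the ES line as covariate for NPC against ES. CPM are counts scaled to the effective library size. Alternatives were DESeq2 1.42.0, limma 3.58.1 on log2(FPKM + 1) and log2(FPKM + 0.1), other filters, line or library subsets, and each library left out. Shares have exact Clopper-Pearson 95% intervals, which like the floors of 3 counts cover counting error only. The labels do not say whether clones were cultured separately. 58 of 239 members share exon bases with another gene in GENCODE, 25 of them over 10% of their bases. The fits were tested on simulated data.

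Named were, in each substrate group, the 2 called members with the largest rise and the 2 with the largest fall at a mean of at least 1 CPM, 14 carriers chosen by role, and every random monoallelic member, with further members added by role. Some genes within this rule are counted but not reported here by name. Members and lists were chosen with earlier results of these data known.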

Additional observations from a re-analysis of the deposited data

Results flagged for a closer look

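In groups of 4 NPC clones of 1 line, the library farthest from the others was set against Dixon's 95% limit for its gap. 104 groups of CPM values and 23 groups of 129 shares were tested, 7 and 1 of them had such a library, and chance gives about 1 in 20. Slc22a17 was at 1090.0 CPM in XX clone E1.2, and from 308.7 to 425.4 CPM in the other XX clones. Slc6a11 was at 23.55 CPM in XX clone G4, and from 0.04439 to 1.264 CPM in the others. Slc17a5 was at 15.12 CPM in G4, and from 11.56 to 12.16 CPM in the others. Slc5a5 was at 0.5475 CPM in XX clone 129, and from 0.1304 to 0.1943 CPM in the others.

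Among XY clones, Slc27a1 was at 93.36 CPM in mE6, below the 107.1 to 108.6 CPM of the others, and Slc4a5 was at 0.08663 CPM in mE6, above 0 to 0.01438 CPM. Slc9a3r2 was at 7.513 CPM in mG3, and from 5.837 to 6.052 CPM in the others. The 129 share of Slc26a7 was 23.67% in mC3, and from 48.39% to 53.47% in the other XY clones.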

How the results depend on the processing

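NPC against ES gave 151 called members and between 125 and 157 with 1 library left out (76 to 97 higher, 44 to 63 lower), but 89 with the XX line alone (51 higher, 38 lower). XX against XY gave 0 members by edgeR, 29 by DESeq2, 5 and 6 by limma on log2(FPKM + 0.1) and log2(FPKM + 1), and 0 to 7 with 1 clone left out, the 7 without clone 129. The interaction gave 0 by edgeR, also with any 1 clone left out (0 to 0), 13 by DESeq2 and 1 and 11 by limma with those pseudocounts. For both comparisons, the shares of all genes under these alternatives are not given here. Random monoallelic members numbered 34, and 25 to 32 with 1 clone left out, fewest without clone 129 (25 of 193 testable). Over all autosomal genes random ones were also fewest without that clone (1286 of 11950). At a minimum of 100 counts the random members were 21 of 174 testable ones (896 of 10731 autosomal genes). At 500 counts they were 11 of 142 (484 of 8909 genes). Where the major allele needed 95% they were 21 of 194 (949 of 12108 genes). Where clones needed an FPKM of 1 they were 16 of 158 (621 of 9787 genes). With G4 and E1.2 both left out they were 21 of 180 (1010 of 11309 genes). Only Slc38a1, Slc25a24, Slc25a13 and Slc25a20 were random under all 16 alternatives. Members of fixed allele numbered 0, or 1 (Slc1a5) without E1.2 and without G4 and E1.2 (0 to 1 with 1 clone left out). Members whose shares differed among clones numbered 33 to 40 with 1 clone left out, and autosomal genes 2094 to 2218. Fewer samples or genes enter many of these settings, and other causes were not tested. Of the 151 members called between NPC and ES, 77 stayed called in every alternative that gave them a value, 19 were lost with the XX line alone and in no other, and 55 were lost in at least 1 other. 4 of the 151 (Slc5a2, Slc5a10, Slc15a3 and Slc46a1) had the opposite sign by limma on FPKM. Without the ES line as a term 147 members were called between NPC and ES. No paired analysis was possible by replicate number because clone numbers do not pair XX with XY clones, nor NPC with ES libraries. At 20 counts a share has a wide interval, which limits the calls of low carriers.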
